A study of Mus musculus with 12 samples.

Results

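Adipose tissue RNA of C57Bl/6 mice was compared between 14 days and 5 days of high-fat diet (HFD), to describe which early differences from chow faded, which persisted and which appeared only later. The comparison used 8 of the 12 arrays of the study, 4 at each time on HFD, and the 4 chow arrays served as the starting level. All mice ate standard chow with 13% of calories from fat until 6 weeks of age. The chow group stayed on it, and the HFD groups received a diet with 46% of calories from fat for 5 or 14 days. No group carried a genetic change or a drug. The labels name neither the fat depot, the sex, the hour of collection nor the age at collection, and they do not say whether the 4 arrays of a group came from separate animals, so the p-values below measure the spread between these arrays only. The day on diet and the age of the mice cannot be told apart between the HFD groups.

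White adipose tissue stores dietary fat as triglyceride in adipocytes, which enlarge when more fat arrives. Around them lie endothelial cells, fibroblast-like progenitors, macrophages and other immune cells, and a mesothelial layer covers visceral depots. The tissue also runs a circadian clock, in which the activators Clock and Arntl drive the repressors of the Per, Cry and Nr1d families and output factors such as Dbp, and feeding is one of the signals that set its phase.

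Values are log2 signals, so a difference of 1 is a doubling, and each gene is represented by the probe set of highest mean over all arrays. The adipocyte gene Adipoq, which encodes adiponectin, stood between 14.90 and 15.05 in all 12 arrays, near the upper end of the scale. Array medians lay between 8.09 and 8.14, and the number of arrays limits the precision.

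Several arrays stood apart in transcripts of other tissues. The mean of 8 epididymis and testis genes was 10.57, 10.71 and 11.14 in 5-day arrays 1 to 3 but 7.57 in 5-day array 4. It was 7.71, 8.11 and 7.81 in 14-day arrays 1 to 3 but 11.85 in 14-day array 4, and between 7.71 and 8.42 on chow. Male reproductive transcripts were therefore high in 3 of the 4 5-day arrays and in 1 of the 4 14-day arrays. The mean of 11 skeletal muscle genes was 12.35 in 5-day array 2 and 12.63 in chow array 3, against 8.03 to 9.16 in the other 10 arrays. The mean of 12 liver genes ran from 9.42 to 13.08 at 5 days and from 9.15 to 12.62 at 14 days. 14-day array 4 was also the highest in 10 smooth muscle genes, at 12.98, and the lowest in 20 macrophage genes, at 9.65 against 10.43 to 11.04 elsewhere. 5-day array 4 had the highest 3' over 5' signal difference of the pyruvate carboxylase control probes, 2.83 against 1.59 to 2.18 in the others. For the Gapdh control probes this difference was 0.272 in 5-day array 4 and 0.276 in 14-day array 2, against 0.064 to 0.134 in the other 10 arrays, and 14-day array 2 was also the highest for the actin control probes, at 0.547 against 0.38 to 0.504. In bulk tissue, fewer cells of a type and less RNA per cell cannot be told apart. Many results are given with and without single arrays, and the part of other tissues in any single result was not tested. Without 14-day array 4, a high epididymis mean remained in 5-day arrays 1 to 3 and in no 14-day array. The median difference of these markers between the HFD times was then −2.01, against −0.64 with all arrays. That setting therefore does not separate time on diet from these transcripts.

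**Figure D1:**
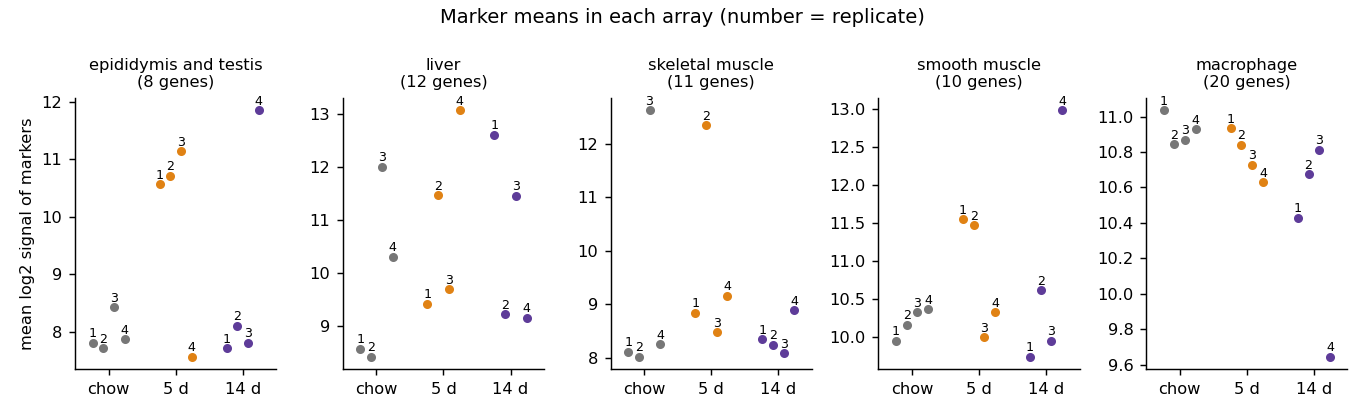
Mean log2 signal of 5 marker lists in each array (numbers are replicates), by diet group. The epididymis and testis mean is high in 5-day arrays 1 to 3 and in 14-day array 4, and 14-day array 4 has the lowest macrophage mean, 9.65.

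Between 5 and 14 days, no gene passed an adjusted p of 0.05 (0 of 13311 tested genes, lowest adjusted p 0.672, limma with Benjamini-Hochberg adjustment). An unadjusted p under 0.05 was found for 340 genes, 2.55% of those tested, of which 235 (1.77%) were higher and 105 (0.789%) lower at 14 days. A share of 0.05 is expected to pass where no gene differs, so the 340 were fewer than that share. The groups did not overlap in 123 genes (0.924%), 86 higher (0.646%) and 37 lower (0.278%). The median difference over all genes was 0.012, and 56 genes differed by more than 1. The 5-day group against chow gave 1345 genes at unadjusted p under 0.05 (10.1%), and the 14-day group against chow 1061 (7.97%, of which 3.67% higher and 4.3% lower), again with 0 passing after adjustment in limma. Fewer genes were past the unadjusted threshold between the HFD times than between either time and chow. The 340 became 211 without 5-day array 1, 804 without 5-day array 4, 531 without 14-day array 3 and 1380 without 14-day array 4. With arrays weighted by their fit to the group means 2212 genes passed the adjusted threshold, and with the epididymis mean as a covariate 36. With both HFD arrays numbered 4 left out, 723 genes passed the adjusted threshold. In that setting every remaining 5-day array and no remaining 14-day array had a high epididymis mean, so time on diet and these transcripts cannot be told apart there. The gene of lowest p was then Wfdc6a, which stood between 12.00 and 12.15 in 5-day arrays 1 to 3 and between 6.96 and 7.02 in 14-day arrays 1 to 3.

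**Figure D2:**
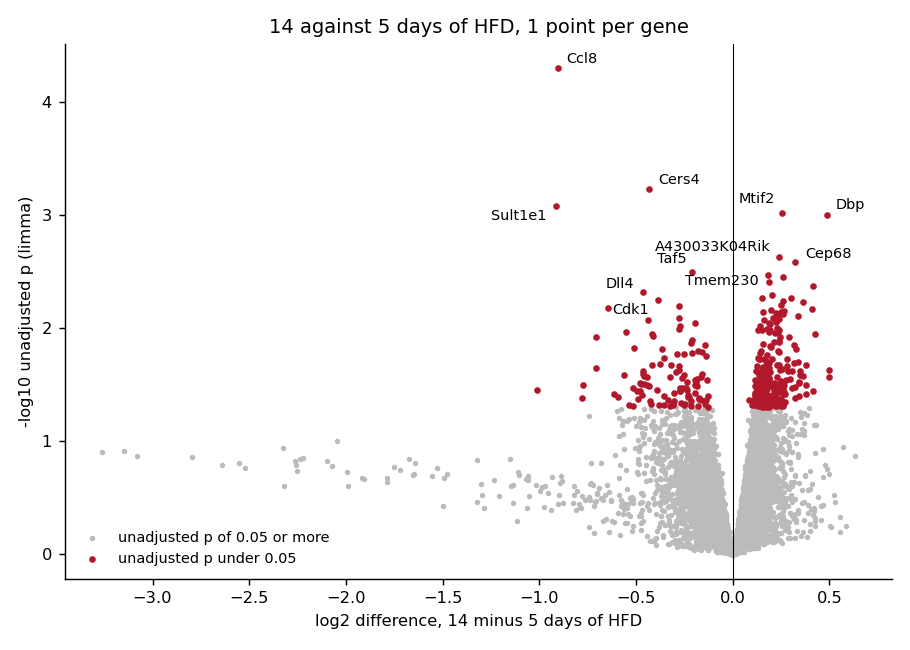
Log2 difference between 14 and 5 days of HFD against the −log10 of the unadjusted limma p, 1 point for each of 13311 genes, with the 340 at p under 0.05 in red. Ccl8 has the smallest p, and no gene passed after adjustment.

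Ccl8, a chemokine that attracts monocytes and other leukocytes, had the smallest p of the comparison (chromosome 11, 82115185 to 82116799, GRCm38.p6). Its signal was 10.37, 10.26, 10.70 and 10.05 in the 5-day arrays and 9.46, 9.73, 9.41 and 9.15 in the 14-day arrays. The groups did not overlap, and the 4 chow arrays (10 to 10.27) lay with the 5-day arrays. The difference was −0.91 ± 0.14 (SE, n = 4 and 4, limma unadjusted p = 5.05e-05, adjusted p = 0.672), and −0.81 without 14-day array 4.

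Sult1e1 and Cers4 followed among the lower genes. Sult1e1, the sulfotransferase that inactivates oestrogens, stood at 11.44, 11.09, 11.68 and 10.98 at 5 days and at 10.32, 10.91, 10.06 and 10.24 at 14 days (chromosome 5, 87575968 to 87591611, GRCm38.p6). The groups did not overlap, and the difference was −0.92 ± 0.20 (limma unadjusted p = 0.000825). Cers4, a ceramide synthase whose level was also above chow at 5 days, stood at 11.14, 11.13, 11.23 and 11.44 at 5 days and at 10.80, 10.73, 10.98 and 10.70 at 14 days (chromosome 8, 4492818 to 4529603). Its groups did not overlap either, the difference was −0.43 ± 0.09 (limma unadjusted p = 0.000592), and its 3 probe sets ranged from −0.43 to −0.28. The other genes among the 12 of smallest p that were lower at 14 days included Taf5, a subunit of the general transcription factor TFIID, at −0.21. Clec2d, a lectin-like ligand of natural killer cell receptors, was lower by 0.64 on the means of 9.16 ± 0.37 and 8.52 ± 0.25 (SD). The uncharacterised transcript BC028528 differed by −0.44, Cdca2, a mitotic phosphatase regulator, by −0.20, and Hpca, a neuronal calcium sensor, by −0.27.

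Among the higher genes, the smallest p belonged to Mtif2, the initiation factor of mitochondrial translation (chromosome 11, 29525352 to 29545452, GRCm38.p6). It stood at 10.02, 10.003, 10.16 and 10.21 at 5 days and at 10.40, 10.30, 10.38 and 10.32 at 14 days. The groups did not overlap, with a difference of 0.26 ± 0.06 (limma unadjusted p = 0.000967). The differences of the 12 higher genes of smallest p ran from 0.15 to 0.49. Dbp was at 0.49 and Ciart at 0.41, while Tmem230, a protein of secretory vesicles, was at 0.18, Tmem161b at 0.19, Scaper at 0.20 and Tcea1, a transcription elongation factor, at 0.15. The second probe set of Tcea1 gave 0.05. Bcl9, a cofactor of beta-catenin, differed by 0.30 and Prepl, a serine hydrolase, by 0.26.

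To describe fading, each gene was placed in a class from the 3 differences at unadjusted p under 0.05. "Early" means past this threshold at 5 days against chow. An early gene "persisted" where 14 days against chow was also past it in the same direction, and "faded" where the 14-day group was past it against the 5-day group, back toward chow, and not against chow. A "later" gene was past it at 14 days against both other groups and not early. The 3 comparisons share arrays, so the classes describe patterns and support nothing beyond them.

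Of the 590 genes early higher than chow (4.43% of those tested), 233 persisted (1.75% of those tested) and 27 faded (0.203%). Of the 755 early lower (5.67%), 295 persisted and 85 faded (0.639%). Of the 295, 2 (0.015%) were past the threshold further from chow at 14 days than at 5 days, and the others (2.2%) were not. The other 330 (2.48%) and 375 (2.82%) early genes met neither definition. Persisted and faded rest on different comparisons, so their counts cannot be set against each other. The 14-day mean lay nearer chow than the 5-day mean in 507 of the 590 early higher genes and 630 of the 755 early lower genes. Their 5-day difference from chow chose these genes, so these counts carry no test. Later genes numbered 32 higher (0.24%) and 41 lower (0.308%). The faded lower genes had a median of −0.22 at 5 days and −0.01 at 14 days against chow, and the persisted lower genes −0.35 and −0.36. The persisted higher genes stood at 0.27 and 0.25, the faded higher genes at 0.31 and 0.04, the later lower genes at −0.08 and −0.41, and the later higher genes at 0.01 and 0.23.

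These class sizes depended on single arrays. The 233 persisted higher genes became 141 without chow array 2, 118 without chow array 3, 149 without chow array 4, 141 without 5-day array 1, 439 without 14-day array 2 and 137 without 14-day array 3. The 295 persisted lower genes became 159 without chow array 2, 486 without 14-day array 2 and 193 without 14-day array 3. The 27 faded higher genes became 16 without 5-day array 1, 54 without 5-day array 2, 82 without 5-day array 4, 17 without 14-day array 2, 75 without 14-day array 3 and 489 without 14-day array 4. The 85 faded lower genes became 54 without chow array 2, 56 without chow array 4, 53 without 5-day array 1, 49 without 5-day array 2, 277 without 5-day array 4, 54 without 14-day array 1, 42 without 14-day array 2 and 249 without 14-day array 4. The 32 later higher genes became 18 without chow array 2 or chow array 3, 15 without 5-day array 2, 87 without 5-day array 4, 20 without 14-day array 1, 122 without 14-day array 2 and 121 without 14-day array 4. The 41 later lower genes became 27 without chow array 4 or 5-day array 2, 14 without 5-day array 1, 130 without 14-day array 2 and 84 without 14-day array 3. Genes are therefore described below by their values in each array.

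**Figure D3:**
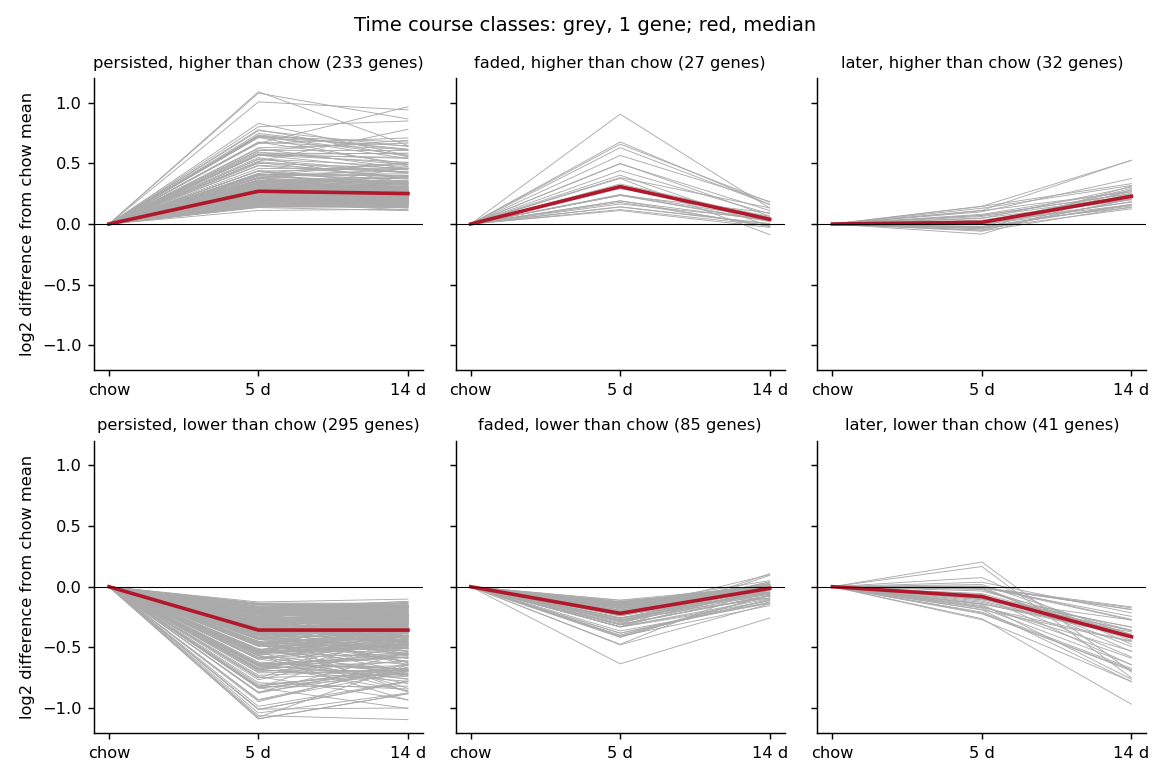
Log2 difference from the chow mean at 5 and 14 days of HFD (columns evenly spaced, not to scale in days), 1 grey line for each gene of a class and the class median in red. By definition, faded genes return toward 0 and persisted genes stay away from it.

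The faded lower genes, 0.639% of all genes, included 4 of the 15 tested members of the circadian clock list, in which 5 members were higher at 14 than at 5 days at unadjusted p under 0.05 and 0 lower, beside 1.77% and 0.789% of all genes. The list median was 0.12 between the HFD times, against 0.012 over all genes, and −0.22 and −0.07 at 5 and 14 days against chow. It was 0.07 without 5-day array 2 and 0.08 without 14-day array 2. Of 18 measured members 3 were below the signal filter, and over all 18 the median was 0.03, with 10 higher and 8 lower at 14 days.

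Dbp, a D-box binding output factor of the clock, stood at 12.67, 12.74, 12.60 and 12.29 on chow, at 12.01, 12.06, 12.31 and 12.01 at 5 days, and at 12.61, 12.59, 12.76 and 12.40 at 14 days (chromosome 7, 45705100 to 45710203, GRCm38.p6). The 5-day and 14-day arrays did not overlap, and the 14-day arrays lay within the chow range or just above it. The difference between the HFD times was 0.49 ± 0.11 (limma unadjusted p = 0.000994), and the second probe set of Dbp gave 0.46. Ciart, a repressor of Clock and Arntl, stood at 9.02, 9.23, 9.48 and 9.31 at 5 days and at 9.64, 9.72, 9.90 and 9.45 at 14 days. Only 14-day array 4 lay below the highest 5-day array, and the difference was 0.41 ± 0.12 (limma unadjusted p = 0.00428).

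Hlf, another D-box binding factor, had means of 10.30 ± 0.03 on chow, 9.88 ± 0.10 at 5 days and 10.23 ± 0.33 at 14 days (SD, n = 4). Its highest array was 14-day array 4, and its difference of 0.35 became 0.19 without that array. The second probe set of Hlf gave 0.16. Nr1d1 and Nr1d2, the nuclear receptors that repress Arntl, differed by 0.34 and 0.16, and these genes were picked after their values were seen, as was Per2. Nr1d1 was 10.67, 10.62, 10.86 and 10.95 at 5 days and 10.95, 11.40, 11.24 and 10.88 at 14 days, so the groups overlapped. The remaining 10 members included Per2, a core repressor, which was below chow at both times, by −0.35 and −0.38, and differed by −0.02 between them. The differences of all 15 members ran from −0.17 to 0.49. The hour of collection was not given, so its part in these values was not tested.

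The E-box, through which Clock and Arntl act, was searched as CACGTG in RefSeq promoters, which run from 250 bases before to 50 bases after the start of the transcript (GRCm38.p6). It was present in 4 of 18 promoters of the tested clock genes, those of Ciart, Per1 and Tef, and in 7.15% of all 32851 promoters. The D-box, TTATGNAA on either strand, was present in 2 of the 18, in Per1 and Per3, and in 3.38% of all. The Ciart promoter is shown because Ciart was among the 12 higher genes of smallest p and its window held 3 E-boxes, in capitals, which start 116, 58 and 44 bases before the start site (chr3:95882179-95882478, minus strand).
Ciart: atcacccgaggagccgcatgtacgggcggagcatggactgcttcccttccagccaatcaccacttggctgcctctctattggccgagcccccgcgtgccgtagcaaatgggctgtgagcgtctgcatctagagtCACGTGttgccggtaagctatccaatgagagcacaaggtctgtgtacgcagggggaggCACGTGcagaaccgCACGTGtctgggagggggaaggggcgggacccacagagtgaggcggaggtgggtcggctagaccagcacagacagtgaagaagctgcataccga

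The other faded lower genes of smallest p were Cep68, a centrosomal linker protein, Itgb3, an integrin beta chain, and the uncharacterised A430033K04Rik. Cep68 had means of 9.64 ± 0.05 on chow, 9.31 ± 0.14 at 5 days and 9.63 ± 0.14 at 14 days (SD, n = 4), a difference of 0.32 between the HFD times, while its 5 probe sets ranged from −0.07 to 0.32. Itgb3 had means of 8.48, 8.25 and 8.51, a difference of 0.26, and its second probe set gave −0.04. A430033K04Rik had means of 8.22, 7.90 and 8.14, a difference of 0.24. Hsp90aa1, the inducible cytosolic chaperone, also belonged here: it stood at 13.53 ± 0.13 on chow, 13.22 ± 0.10 at 5 days and 13.46 ± 0.12 at 14 days, and its groups did not overlap between the HFD times. It was the 1 of 12 heat shock chaperones at unadjusted p under 0.05, beside 1.77% of all genes higher at that threshold. That list had a median of 0.13, which was 0.04 without 5-day array 4 and 0.03 without 14-day array 4.

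The faded higher genes held 5 of the 20 tested members of the cell cycle and DNA replication list, beside 0.203% of all genes. Between the HFD times 6 members were lower and 1 higher at unadjusted p under 0.05, beside 0.789% and 1.77% of all genes, and 16 of the 20 had a lower mean at 14 days, beside 44% of all genes. The list median was −0.12 between the HFD times and 0.12 and 0.03 at 5 and 14 days against chow. The list has 28 measured members, and 8 did not reach the signal filter. Of the 20 tested, 19 had every group mean above the filter; the exception, Mki67, passed it through the 5-day group. Over all 28 measured members, 24 were lower at 14 days, with a median of −0.15.

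Cdk1, the kinase that drives entry into mitosis, was 8.38, 8.22, 8.37 and 8.28 on chow, 8.79, 8.94, 8.55 and 8.96 at 5 days and 8.35, 8.40, 8.72 and 8.23 at 14 days. All 5-day arrays lay above all chow arrays, and 1 14-day array reached into the 5-day range. The difference between the HFD times was −0.39 ± 0.11 (limma unadjusted p = 0.00562). Prc1, which bundles microtubules of the central spindle, differed by −0.28 and lay at 8.21 ± 0.05 on chow, 8.53 ± 0.18 at 5 days and 8.25 ± 0.07 at 14 days (SD, n = 4).

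Ube2c and Cdc20, both parts of the machinery that destroys mitotic cyclins, differed by −0.48 and −0.20. Mki67, the antigen Ki-67 of dividing cells, was 8.58, 8.26, 7.36 and 9.26 at 5 days and 7.38, 7.72, 7.97 and 7.29 at 14 days. One 5-day array lay at the chow level (7.33 to 7.52), and the difference of −0.77 became −0.47 without 5-day array 4. Mcm4, a subunit of the replicative helicase, went the other way with 0.18. These 4 genes were picked after their values were seen.

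Dll4, a Notch ligand of sprouting endothelium, was also faded higher (chromosome 2, 119325784 to 119335666, GRCm38.p6). It stood at 8.82, 8.72, 8.87 and 9.36 at 5 days and at 8.47, 8.52, 8.66 and 8.28 at 14 days. The groups did not overlap, 5-day array 4 was the highest, and the difference was −0.46 ± 0.13 (limma unadjusted p = 0.00475). All 15 tested endothelial markers had a lower mean at 14 days, beside 44% of all genes. Dll4 was the 1 member at unadjusted p under 0.05, beside 0.789% of all genes lower at that threshold. Tie1, an endothelial receptor, differed by −0.58 and Cldn5, a tight junction protein, by −0.56. The endothelial marker mean was 11.19 in 5-day array 4 and 10.39 to 10.54 in the other 5-day arrays, and 10.10 to 10.81 at 14 days. The list median of −0.22 was −0.05 without 5-day array 4, −0.15 without 14-day array 1 and −0.38 without 14-day array 2. Without 5-day array 4, 10 members were lower and 5 higher, beside 61.2% of all genes higher. In that setting Dll4 was at −0.32, Tie1 at −0.30 and Cldn5 at −0.32. Msrb1, which repairs oxidised methionine, completed the 5 faded higher genes of smallest p, with means of 12.82 on chow, 13.14 at 5 days and 12.87 at 14 days.

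**Figure D4:**
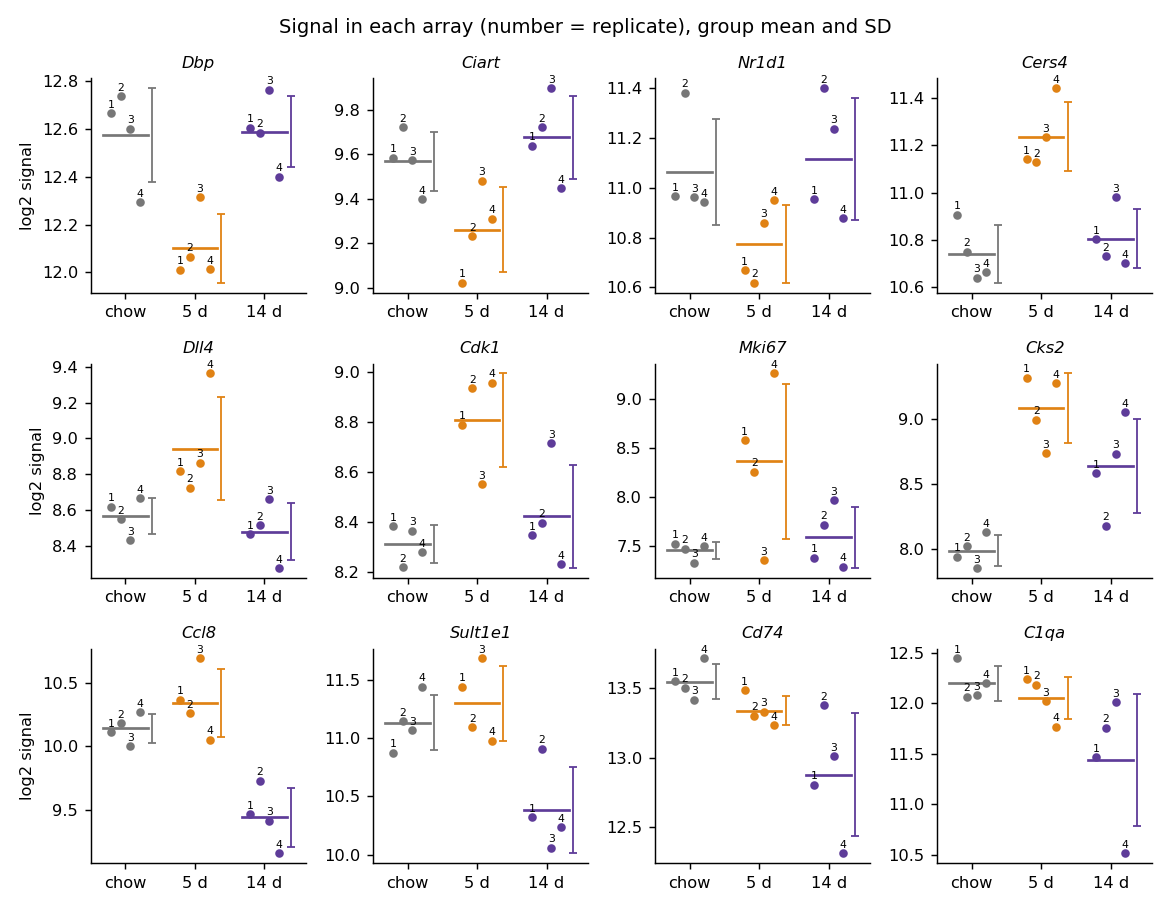
Log2 signal of 12 genes in each array (numbers are replicates), by diet group, with the group mean as a line and the SD as an error bar. Ccl8 and Sult1e1 are lower in all 14-day than in all 5-day arrays, Dbp is higher, and 14-day array 4 is the lowest for C1qa at 10.51 and for Cd74 at 12.31.

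The persisted higher genes of smallest p against chow at 5 days were Cks2, Mrps6, Cdca3, Ostm1 and Fhl1. These differences from chow chose them and carry no test here. Cks2, a small partner of cyclin-dependent kinases, was 7.94, 8.02, 7.86 and 8.13 on chow, 9.31, 8.99, 8.74 and 9.27 at 5 days, and 8.58, 8.18, 8.73 and 9.05 at 14 days. All 14-day arrays lay above all chow arrays, and the 14-day mean lay 0.44 ± 0.17 below the 5-day mean (limma unadjusted p = 0.027), a gap of −0.58 without 14-day array 4 and −0.29 without 14-day array 2. Mrps6, a protein of the mitochondrial ribosome, was 11.73 to 12.13 on chow, 12.77, 12.53, 12.73 and 12.91 at 5 days and 12.67, 12.32, 12.86 and 12.55 at 14 days. It differed by −0.14 ± 0.13 between the HFD times.

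Cdca3, a trigger of mitotic entry, had means of 7.67 on chow, 8.03 at 5 days and 7.90 at 14 days. Ostm1, the partner of a lysosomal chloride transporter, had means of 11.01, 11.35 and 11.21. Fhl1, a LIM domain protein, was at 13.00, 13.40 and 13.41, so its means at the HFD times differed by 0.01 ± 0.08.

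Among the persisted lower genes, the uncharacterised 2810459M11Rik had means of 9.31 on chow, 8.48 at 5 days and 8.89 at 14 days, and its 14-day arrays all lay above its 5-day arrays, by 0.41. Cxxc5, a zinc finger protein that acts on Wnt signalling, was 9.86, 10.05, 9.997 and 9.94 on chow, 9.57, 9.51, 9.53 and 9.54 at 5 days and 9.59, 9.88, 9.61 and 9.79 at 14 days. It lay 0.18 above its 5-day level at 14 days, with no overlap between the HFD groups. Podn, an extracellular matrix proteoglycan, had means of 11.99, 11.36 and 11.41. Osr1, a transcription factor of mesenchymal progenitors, had means of 10.73, 10.04 and 9.99, and St3gal6, a sialyltransferase, of 10.16, 9.51 and 9.61. The last 3 differed by at most 0.10 in size between the HFD times.

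Mesothelial markers lay below chow at both HFD times. Of 15 tested, 9 were in the persisted lower class, beside 2.2% of all genes, and the list median was −0.53 at 5 days and −0.54 at 14 days against chow. Between the HFD times it was 0.06, with 10 members higher and 5 lower and 0 at unadjusted p under 0.05. That median was 0.09 without 5-day array 1, −0.01 without 5-day array 4, −0.07 without 14-day array 1 and 0.23 without 14-day array 4. Bnc1, a transcription factor of mesothelial cells, was 9.62, 9.71, 9.24 and 9.40 on chow, 8.80, 8.63, 8.43 and 8.38 at 5 days and 9.43, 8.82, 9.02 and 7.92 at 14 days. 14-day arrays 1 to 3 lay above all 5-day arrays and 14-day array 4 below them, and the difference of 0.23 became 0.53 without array 4. Krt19, an epithelial keratin, differed by 0.48, or 0.13 without 14-day array 4.

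Genes of cholesterol synthesis and uptake, which are driven by the factor SREBP2 when cell sterol is low, lay above chow at both HFD times. Of 20 tested, 19 had a mean above chow at each HFD time, beside 49.5% of all genes at 5 days and 55.2% at 14 days, with medians of 0.19 and 0.20. Between the HFD times 12 were higher and 8 lower, with a median of 0.02 and 0 at unadjusted p under 0.05, and without single HFD arrays that median lay between −0.03 and 0.07. Insig1, which retains SREBP in the endoplasmic reticulum, and Msmo1, a sterol methyl oxidase, were the 2 members in the persisted higher class, beside 1.75% of all genes. Their values were known when they were picked. Insig1 had means of 10.58 on chow, 11.09 at 5 days and 10.96 at 14 days, and Msmo1 of 9.48, 9.86 and 9.93. Tm7sf2, a sterol reductase, was 10.46, 10.45, 10.18 and 10.16 at 5 days and 9.60, 8.95, 9.91 and 11.18 at 14 days. Its 14-day arrays lay on both sides of the 5-day range, and its difference of −0.40 was −0.82 without 14-day array 4 and −0.08 without 14-day array 2.

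The later lower genes were led by Ccl8 and Sult1e1. Nmb, which encodes the peptide neuromedin B, was 9.24, 9.08, 9.22 and 9.31 at 5 days and 9.03, 9.05, 8.85 and 8.82 at 14 days, without overlap, a difference of −0.28. Scara5, a ferritin receptor of stromal cells, differed by −0.55, or −0.36 without 14-day array 4, and its second probe set was at 0.00. Among later higher genes, Ergic1, a protein of the compartment between endoplasmic reticulum and Golgi, differed by 0.37 and its 5 probe sets ranged from 0.06 to 0.37. Gtf3c6, a subunit of an RNA polymerase III factor, differed by 0.20 without overlap, and Kif21a, a kinesin, by 0.26.

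Of the 20 tested macrophage markers, 7 were in the later lower class, beside 0.308% of all genes. Without 14-day array 4, 16 of the 41 genes of that class stayed in it. Between the HFD groups 0 of the macrophage markers were lower without overlap, beside 0.278% of all genes. All 20 tested members had a lower mean at 14 than at 5 days, beside 44% of all genes, and 8 were lower at unadjusted p under 0.05, beside 0.789%. The list median was −0.40 between the HFD times, −0.10 at 5 days and −0.51 at 14 days against chow. Without 14-day array 4 the median between the HFD times was −0.16, with 18 members lower and 2 higher and 3 lower at unadjusted p under 0.05. Without that array 39.6% of all genes had a lower mean and 5.26% were lower at unadjusted p under 0.05. C1qa, a chain of complement C1q made by tissue macrophages and picked after its values were seen, was 12.24, 12.19, 12.02 and 11.77 at 5 days and 11.47, 11.76, 12.01 and 10.51 at 14 days. The groups overlapped, and the difference of −0.62 became −0.31 without 14-day array 4.

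Folr2, a folate receptor of resident macrophages, differed by −0.56, or −0.32 without that array, and Cd68, a lysosomal glycoprotein, by −0.48, or −0.23. Cd14, the co-receptor for bacterial lipopolysaccharide, was 10.88, 11.01, 10.96 and 10.75 on chow, 10.32, 10.39, 10.38 and 10.36 at 5 days and 10.03, 10.37, 10.14 and 9.63 at 14 days. It was 1 of the 2 persisted lower genes past the unadjusted threshold further from chow at 14 than at 5 days. Its difference between the HFD times was −0.32 or, without 14-day array 4, −0.19. Adgre1, an adhesion receptor used as a marker of mouse macrophages, had means of 10.14 on chow, 10.04 at 5 days and 9.76 at 14 days, and its difference of −0.28 was 0.00 without 14-day array 4.

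Class II antigen presentation genes display peptides to CD4 T cells. Of 16 tested members of the antigen presentation list, 13 were lower at 14 days, beside 44% of all genes, and 4 at unadjusted p under 0.05, beside 0.789%. The list median was −0.09, or −0.14 without 14-day array 2 and −0.06 without 14-day array 4. In the latter setting 11 were lower and 5 higher, with 3 lower and 1 higher at unadjusted p under 0.05. Of all genes 39.6% then had a lower mean, and 5.26% were lower and 5.11% higher at that threshold. The 4 members past the threshold with all arrays were Cd74, the invariant chain, H2-Eb1, H2-Ab1 and H2-Aa, the last picked after its values were seen. Cd74 was 13.49, 13.30, 13.33 and 13.23 at 5 days and 12.80, 13.38, 13.01 and 12.31 at 14 days. 14-day array 2 lay inside the 5-day range and the other 3 below it, and the difference was −0.46 ± 0.18 (limma unadjusted p = 0.0237), or −0.27 without 14-day array 4. H2-Eb1 and H2-Ab1 differed by −0.46 each and H2-Aa by −0.43. Without 14-day array 4 these differences were −0.27, −0.26 and −0.30.

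Of other immune lists, the mast cell list gave 2 of 6 lower at unadjusted p under 0.05, beside 0.789% of all genes, Cpa3 at −0.25 and Mcpt4 at −0.23, both mast cell proteases. Without 14-day array 4, 5 of the 6 had a lower mean and 0 were lower at that threshold, beside 39.6% and 5.26% of all genes. Cd209a, a lectin of monocyte-derived dendritic cells, was lower by 0.42 on the means 8.72 and 8.30, or by 0.27 on this scale without 14-day array 4. Of the 6 tested dendritic cell markers, 4 were higher and 2 lower at 14 days, with a median of 0.005. Of the 8 tested complement genes outside C1q, 7 had a lower mean at 14 days, beside 44% of all genes, with a median of −0.22. Without 14-day array 4 that median was 0.02, with 4 lower and 4 higher. C3ar1, the receptor for complement C3a, was the 1 member at unadjusted p under 0.05 and differed by −0.28. S100a8, a calcium-binding protein of neutrophils, differed by −1.01, or −0.67 without 14-day array 4. The cytokine list had a median of −0.08 over 24 genes with Ccl8 the 1 member at unadjusted p under 0.05, and that median was 0.03 without 14-day array 4 and −0.14 without 14-day array 2. Ccl2 and Tnf, an attractant of monocytes and a central inflammatory cytokine, differed by −0.18 (95% interval −0.57 to 0.22) and 0.05 (−0.13 to 0.23), and the Ccl2 difference was −0.04 without 14-day array 4. Nos2, the inducible nitric oxide synthase, lay near the signal filter of 7.64 and differed by 0.04 (−0.13 to 0.22).

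Interferon response genes, which are switched on in virus defence, were lower at 14 days in 20 of 25 tested, beside 44% of all genes. Of them 4 were at unadjusted p under 0.05, beside 0.789%, and 5 did not overlap between the groups, beside 0.278%. The list median was −0.17, and −0.16 and −0.37 at 5 and 14 days against chow. It was −0.11 without 5-day array 4 and −0.09 without 14-day array 4. The mean of the 25 genes was 9.51 and 9.50 in chow arrays 1 and 2 but 9.99 and 10.01 in chow arrays 3 and 4, against 9.46 to 9.80 at 5 days and 9.32 to 9.45 at 14 days. Chow arrays 1 and 2 therefore lay within the 5-day range, and chow arrays 3 and 4 above all HFD arrays. Oas1a, a sensor enzyme for double-stranded RNA, was 9.77, 9.73, 9.66 and 9.79 at 5 days and 9.60, 9.63, 9.49 and 9.54 at 14 days. Ifit3, which binds viral RNA complexes, was 9.86, 9.68, 9.73 and 9.99 at 5 days and 9.67, 9.42, 9.54 and 9.29 at 14 days. Neither gene overlapped between the groups, and the differences were −0.17 ± 0.07 (limma unadjusted p = 0.042) and −0.33 ± 0.15 (limma unadjusted p = 0.0433). Stat2, the transcription factor, differed by −0.26, and its second probe set gave −0.07. Bst2, which tethers budding virus and was picked after its values were seen, differed by −0.31, or −0.18 without 5-day array 4.

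The interferon element, searched on both strands as GAAA, any 2 bases and GAAA, was present in 12 of 21 promoters of this list, which belong to 12 of 18 genes, and in 3.44% of all promoters. The promoters of Oas1a and Ifit3 are shown because both genes were lower at 14 days without overlap and hold 2 matches each, in capitals. The matches in Oas1a overlap each other and start 20 and 14 bases before the start site (chr5:120907476-120907775, minus strand). Those in Ifit3 start 156 and 122 bases before it and read on the opposite strand (chr19:34583279-34583578, plus strand). Searches of other lists found no match. A sterol element was present in 0 of 19 promoters of the cholesterol list and in 0.091% of all promoters. A PPAR element was present in 0 of 21 promoters of the triglyceride list and in 0.04% of all.
Oas1a: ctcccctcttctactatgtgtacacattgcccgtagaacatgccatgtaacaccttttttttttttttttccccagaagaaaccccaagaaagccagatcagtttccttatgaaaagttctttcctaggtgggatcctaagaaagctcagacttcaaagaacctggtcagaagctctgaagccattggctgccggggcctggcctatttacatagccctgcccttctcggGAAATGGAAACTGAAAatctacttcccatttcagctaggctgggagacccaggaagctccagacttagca
Ifit3: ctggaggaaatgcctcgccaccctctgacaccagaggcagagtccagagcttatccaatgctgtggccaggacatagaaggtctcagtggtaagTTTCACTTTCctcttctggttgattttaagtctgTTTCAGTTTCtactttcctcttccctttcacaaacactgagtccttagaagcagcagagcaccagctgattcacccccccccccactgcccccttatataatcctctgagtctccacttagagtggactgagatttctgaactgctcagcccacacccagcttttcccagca

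Extracellular matrix genes were lower at 14 days in 28 of 32 tested, beside 44% of all genes. Of them 4 were at unadjusted p under 0.05, beside 0.789%, while 1 member was higher at that threshold, beside 1.77%. The list median of −0.22 became −0.08 without 14-day array 4, and it was 0.06 and −0.14 at 5 and 14 days against chow. Without 14-day array 4, 24 members were lower and 8 higher, beside 39.6% and 60.4% of all genes. In that setting 1 was lower and 3 were higher at unadjusted p under 0.05, beside 5.26% and 5.11%. Col1a2, a chain of type I collagen, was 13.40, 13.21, 13.07 and 13.22 at 5 days and 12.88, 13.13, 12.96 and 12.47 at 14 days, a difference of −0.37, or −0.24 without 14-day array 4. Lox, which cross-links collagen, differed by −0.49, or −0.24 without that array. Thbs2, a thrombospondin that restrains vessel growth, was the member that was higher, at 0.50. All 13 preadipocyte and fibroblast markers had a lower mean, beside 44% of all genes, their median was −0.08 and 0 were at unadjusted p under 0.05. That median lay between −0.22 and −0.04 without single HFD arrays.

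The adipocyte identity list had a median of −0.01 over 13 genes, with 0 at unadjusted p under 0.05. Without 14-day array 4 that median was 0.11, with all 13 members higher and 2 of them at that threshold. Of all genes 60.4% then had a higher mean, and 5.11% were higher at that threshold. Adipoq was at 0.01 (95% interval −0.07 to 0.10), and Pparg, the master regulator of adipocyte differentiation, at 0.00 (−0.35 to 0.35). Pparg was 12.24, 12.12, 12.38 and 12.49 at 5 days and 12.46, 12.50, 12.51 and 11.75 at 14 days, with 14-day array 4 far below the others. Slc2a4, the insulin-responsive glucose transporter, was at −0.05 (−0.40 to 0.29), and 0.11 without 14-day array 4. Hif1a, the hypoxia-inducible factor, was at 0.04 (−0.12 to 0.20), and Slc25a5, a mitochondrial ADP/ATP carrier, at −0.05 (−0.18 to 0.07). Ucp1, the uncoupling protein of brown and beige fat, was below the signal filter with a mean of 7.13.

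Lep, Mest and Sfrp5 track expanding fat mass. Of the 7 tested members of that list all lay above chow at both HFD times, beside 49.5% of all genes at 5 days and 55.2% at 14 days. Their medians against chow were 0.49 at 5 days and 0.23 at 14 days. Between the HFD times 6 were lower at 14 days, beside 44% of all genes, with a median of −0.08. Without 14-day array 4 this turned round, with 6 higher, 1 lower and a median of 0.05. Lep, which encodes leptin, was 12.69, 12.41, 12.70 and 13.01 at 5 days and 12.90, 12.23, 12.99 and 11.56 at 14 days. 14-day array 4 was the lowest of all HFD arrays, and the difference of −0.28 (95% interval −0.92 to 0.36) was 0.01 without it. Mest differed by −0.33 (−1.01 to 0.35), or −0.09 without that array. Sfrp5, a secreted Wnt inhibitor, was 10.25, 9.71, 10.18 and 10.73 at 5 days and 11.50, 9.87, 10.46 and 8.88 at 14 days, a difference of −0.04 (−1.02 to 0.94), or 0.39 without 14-day array 4. These intervals do not settle whether the fat mass genes went on from their 5-day level or returned from it.

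Fatty acid synthesis genes had a median of −0.13 over 17 genes, with 1 at unadjusted p under 0.05, and 0.00 without 14-day array 4, −0.01 without 14-day array 2 and −0.08 without 5-day array 3. Pnpla3, a lipase that follows lipogenic factors, was that member, at −0.78 or, without 14-day array 4, −0.52, beside 0.789% of all genes lower at that threshold. Fasn, the fatty acid synthase, was 14.28, 14.46, 14.18 and 14.30 at 5 days and 13.90, 13.42, 14.62 and 13.36 at 14 days. 3 of its 14-day arrays lay below and 1 above all 5-day arrays, and the difference was −0.48 (95% interval −0.99 to 0.03). Scd1, the stearoyl-CoA desaturase, was within 15.11 and 15.20 in all HFD arrays, near the top of the scale, with a difference of −0.02 (−0.09 to 0.06).

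Triglyceride storage and lipolysis, insulin signalling, mitochondrial fatty acid oxidation, oxidative phosphorylation, branched-chain amino acid breakdown and the unfolded protein response had medians between −0.01 and 0.01, with 0 members at unadjusted p under 0.05. Without 14-day array 4 the triglyceride median was 0.09, with 19 of 20 members higher and 7 of them at unadjusted p under 0.05, beside 60.4% and 5.11% of all genes in that setting. Branched-chain breakdown then had a median of 0.09, with 16 of 19 higher and 3 at that threshold, fatty acid oxidation 0.12 with 18 of 20 and 2, and insulin signalling 0.11 with 14 of 17 and 1. In the same setting 4 oxidative phosphorylation genes were lower and 1 higher at that threshold, and 5 unfolded protein response genes were lower, beside 5.26% of all genes. Only 5-day arrays had a high epididymis mean in that setting, and the part of these transcripts in the values was not tested. Glycolysis had a median of −0.07 and the immediate early genes −0.06, or 0.05 and 0.00 without 14-day array 4. Among immediate early genes, Fos and Fosl2, parts of the AP-1 factor, were the 2 of 20 lower at unadjusted p under 0.05, beside 0.789% of all genes. They differed by −0.71 and −0.38, or −0.52 and −0.25 without 14-day array 4, and the second probe set of Fosl2 gave −0.15. Of the 14 glucocorticoid targets 12 had a lower mean, beside 44% of all genes, with a median of −0.13 and 0 at unadjusted p under 0.05. Without 14-day array 4, 9 of these targets were lower and 5 higher, with a median of −0.09, beside 39.6% of all genes lower. All 11 skeletal muscle markers had a lower mean, beside 44% of all genes, and their median of −1.30 was −0.42 without 5-day array 2. Only 8 of the 11 had every group mean above the signal filter, and over all 15 measured members 14 were lower, with a median of −1.24. The epididymis and testis markers had a median of −0.64, which was −0.38 without 5-day array 3, −1.36 without 5-day array 4 and −2.01 without 14-day array 4. Of these 8 markers 5 had every group mean above the signal filter, and over all 15 measured members 10 were lower and 5 higher, with a median of −0.10.

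**Figure D5:**
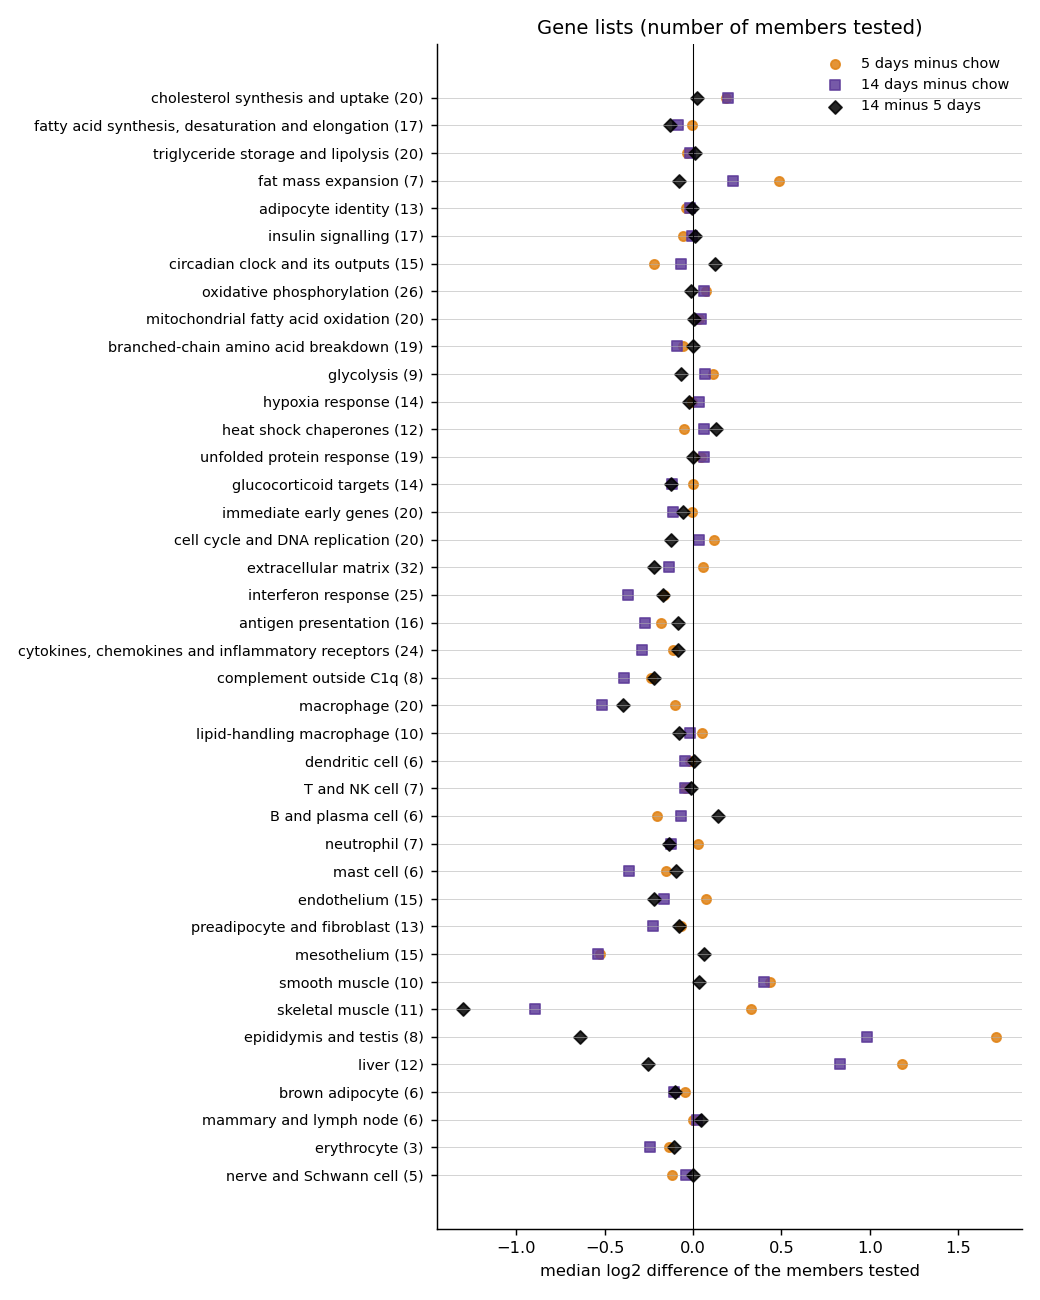
Median log2 difference of the tested members of each gene list, with 1 symbol for each of the 3 comparisons between groups. Macrophage markers lie at −0.40 between the HFD times, mesothelial markers at −0.53 and −0.54 against chow, and skeletal muscle markers at −1.30 between the HFD times.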

How the data were processed

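Total RNA of 12 adipose samples (4 per group) was labelled with biotin and hybridised to single-colour Affymetrix arrays, per the labels. The authors deposited 1 table of log2 values for 45098 probe sets. Its scale was judged from the values, and probe summary and normalization are not given in the sources used here. Nothing was renormalized. Of the probe sets, 61 were controls, 34945 carried 1 symbol in the platform annotation, 932 several and 9160 none, and 34741 matched RefSeq (GRCm38.p6) by Entrez ID. Each of 18193 genes took its probe set of highest mean, and 13311 above the 40th percentile of probe set means (7.64) were tested.

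All 12 arrays entered 1 fit with limma 3.58.1 in R 4.3.3 (eBayes with trend, two-sided, Benjamini-Hochberg adjustment over all genes, threshold 0.05). The fit was tested on simulated data, in which deviations from the group means were shuffled separately within each gene. Deviations shared by many genes of an array were therefore not kept. The simulation does not show how the fit handles arrays that stand apart. Named genes were the 12 of smallest p in each direction, 5 per class, up to 3 members of each of 22 pathway and 18 marker lists, and a set of adipose genes, of which the text names part. Members and lists were chosen with earlier results of these data known. Alternatives covered scaling, filter, probe sets, variance models, array weights, covariates, a replicate block and leaving out arrays. Arrays sharing a number in the 5-day and 14-day groups deviated from their group means with correlations of −0.73 to −0.33. These correlations ran from −0.43 to 0.002 between chow and 5 days, and from 0.005 to 0.41 between chow and 14 days. The main fit did not use the numbers as pairs. High epididymis transcripts fell on different numbers at the HFD times, and their part in the correlations was not tested. The correlations therefore do not decide on pairing.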

Additional observations from a re-analysis of the deposited data

Results flagged for a closer look

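In 15 of 291 groups of 4 arrays, over the printed genes and 5 marker means, 1 array lay far from the other 3 by Dixon's gap, which chance gives in about 1 in 20 groups. 14-day array 4 was the one in 4 of them: it was high for the epididymis and testis mean (11.85) and low for Pparg (11.75), Lox (9.81) and Cd209a (7.84). 5-day array 4 was low for the epididymis and testis mean (7.57) and high for Kif21a (9.29). 5-day array 2 was low for Tmem230 (11.43). On chow, array 1 was low for A430033K04Rik (8.16), Prepl (9.66) and Osr1 (10.48) and high for Itgb3 (8.61) and Slc25a5 (13.66). Chow array 2 was low for Mtif2 (10.11) and high for Nr1d1 (11.38), and chow array 3 was high for the skeletal muscle mean (12.63).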

How the results depend on the processing

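Without a filter on dim genes the faded higher class held 52 genes, and with a 60th percentile filter it held 13 and the later higher class 19. That filter put the cell cycle median at −0.016, brown adipocyte at −0.60 and erythrocyte at −0.70, and averaging all probe sets of a gene gave −0.70 for erythrocyte, −0.031 for Fhl1 and −0.00063 for Hif1a. Quantile normalization gave −0.0096 for Fhl1, −0.0038 for Adipoq and −0.014 for Pparg.

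Array weights gave 2212, 2015 and 2979 adjusted calls for 14 against 5 days, 5 days against chow and 14 days against chow, and 4646 genes at unadjusted p under 0.05 between the HFD times. Persisted higher and lower classes then held 915 and 870 genes, faded 741 and 769, later 1542 and 509. List medians were 0.022 for fatty acid synthesis, 0.18 for insulin signalling, 0.20 for fatty acid oxidation, 0.11 for glycolysis, 0.073 for hypoxia, 0.078 for complement and 2.27 for liver, and Lep was at 0.19, Mest 0.29, Sfrp5 0.92, Slc2a4 0.22 and Per2 0.13. Fits of only the 2 groups compared gave 213 calls for 5 days against chow and 156 genes at unadjusted p under 0.05 between the HFD times.

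The epididymis covariate gave 36 and 528 adjusted calls for 14 against 5 days and 5 days against chow, 1781 genes at unadjusted p under 0.05 between the HFD times, 843 persisted higher, 591 and 293 faded and 127 later lower genes, with Fhl1 at −0.039, Podn −0.0089, Adipoq −0.0062 and Pparg −0.15. Covariates for epididymis, liver and skeletal muscle gave 1475 genes, 61 and 59 persisted, 461 and 184 faded, 6 and 21 later, with Fhl1 at −0.0074, Podn −0.014, Adipoq −0.0050, Pparg −0.18, Hif1a −0.041, Nos2 −0.0061 and Tm7sf2 0.013. Leaving out both HFD arrays numbered 4 gave 723, 881 and 1 adjusted calls, 2902 genes at unadjusted p under 0.05, 752 and 793 faded and 473 and 109 later genes. Medians were then 0.0027 for fatty acid synthesis, 0.10 for hypoxia, −0.033 for interferon, 0.079 for complement and −2.73 for epididymis, and Lep was at 0.11, Mest 0.045, Sfrp5 0.57, Slc2a4 0.14, Scd1 0.0027, Per2 0.20, Msmo1 −0.10 and Krt19 −0.0093. At an unadjusted p under 0.01 the classes held 31 and 63 persisted, 3 and 9 faded and 1 and 4 later genes. The cause of these changes was not tested.

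Leaving out 1 array at a time gave 0 to 123 adjusted calls for 5 days against chow, 0 to 20 for 14 days against chow and 0 between the HFD times, with 211 to 1380 genes at unadjusted p under 0.05. The persisted classes ranged from 118 to 439 and 159 to 486, faded 16 to 489 and 42 to 277, later 15 to 122 and 14 to 130. Medians ranged from −0.17 to 0.0030 for fatty acid synthesis and −0.037 to 0.065 for hypoxia. Differences that changed sign were Fhl1 (−0.043 to 0.070), Podn (−0.013 to 0.17), Osr1 (−0.15 to 0.021), Lep (−0.47 to 0.0050), Sfrp5 (−0.48 to 0.39), Adipoq (−0.0039 to 0.045), Slc2a4 (−0.15 to 0.11), Scd1 (−0.027 to 0.0030), Pparg (−0.067 to 0.19), Tnf (−0.0068 to 0.094), Hif1a (−0.013 to 0.080), Per2 (−0.097 to 0.10) and Msmo1 (−0.059 to 0.23).

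With the replicate block, 282 genes were at unadjusted p under 0.05 between the HFD times and 0 passed after adjustment in limma, as in the fit without the block. Whether arrays sharing a number were paired was not settled by these values. Ccl8 had the smallest p in most settings, and the number of arrays limits the precision throughout.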
